A study of Mus musculus with 4 samples.

Results

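ATAC-seq peaks lying nearest to a microRNA gene were examined in 4 skeletal muscles of wild-type C57BL/6 mice: the fast, glycolytic extensor digitorum longus (EDL) and quadriceps (Quad), the slow, oxidative soleus (Sol) and the diaphragm (Dia). ATAC-seq marks accessible chromatin through the places where the Tn5 transposase inserts sequencing adapters. The methods of the study describe male C57BL/6J mice bought as young adults, the age at dissection is not given in the labels, and no allele or treatment set the muscles apart. Each muscle had 1 library, labelled as pooled, so muscles were compared without p-values and a difference is one between these libraries. A peak was counted as a microRNA peak when the nearest gene named in the deposited list began with Mir and a digit, which left out the let-7 genes (7 to 11 peaks per list). By this rule the EDL list held 840 microRNA peaks among 30136, the Quad list 1211 among 40337, the Sol list 777 among 28784 and the Dia list 500 among 21582, which gave 3328 of 120839 peaks in all. Merging overlapping peaks of the 4 lists gave 53883 regions, of which 1683 held a microRNA peak. Of 8 skeletal muscle marker genes, Ckm, Ttn and Des had a promoter peak in all 4 lists. The promoters of Acta1 (not in Sol), Mb (not in Quad or Dia), Tnnt3 (not in EDL or Dia), Actn2 (not in Sol or Dia) and Myod1 (not in Dia) had one in some lists, and the cardiac genes Myh6 and Nppa had no peak. In muscle tissue, fewer nuclei of one cell type and less open chromatin per nucleus cannot be told apart.

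MicroRNAs are short RNAs that guide Argonaute proteins to partly complementary messenger RNAs and lower their translation or stability. They are cut from longer transcripts that start at promoters of their own or at the promoter of a gene in whose introns they lie, so the start listed for a microRNA gene is often the start of its hairpin and not of its transcript. Striated muscle is known for miR-1, miR-133 and miR-206, which promote or restrain myogenic differentiation. It is also known for miR-208b and miR-499, which are encoded in the myosin genes Myh7 and Myh7b and favour the slow fiber programme.

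The mature sequences of muscle microRNAs are shown 5′ to 3′ with the seed, bases 2 to 8, in capitals, since the seed sets most of the target choice. They were taken from RefSeq for GRCm38.p6, where 480 of the 534 gene names found among the microRNA peaks had an entry.
miR-206-3p: uGGAAUGUaaggaagugugugg
miR-133b-3p: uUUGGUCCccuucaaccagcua
miR-499-5p: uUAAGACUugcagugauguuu
miR-208a-3p: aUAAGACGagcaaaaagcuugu
miR-208b-3p: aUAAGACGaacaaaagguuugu
miR-22-3p: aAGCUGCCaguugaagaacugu
The seeds of miR-208a-3p and miR-208b-3p were identical, and these 2 microRNAs matched at 19 of 22 positions. The last sequence belongs to the host transcript with the strongest promoter peak among the named host transcripts.

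The peaks on which the description of the muscle microRNAs turns are shown on the plus strand of GRCm38.p6 (mm10). Capitals mark the E-box CAGCTG, which reads the same on both strands and is bound by myogenic factors such as MyoD, and the MEF2 motif, searched on both strands. No other match to these motifs lay in the windows shown, which says nothing of binding.
Mir1a-1hg promoter peak, Sol, chr2:180385371-180385577: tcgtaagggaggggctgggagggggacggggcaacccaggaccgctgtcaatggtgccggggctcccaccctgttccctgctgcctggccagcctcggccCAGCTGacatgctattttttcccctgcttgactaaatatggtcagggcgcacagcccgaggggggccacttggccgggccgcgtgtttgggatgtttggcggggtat
Mir1a-1hg promoter peak, Quad, chr2:180385167-180385355: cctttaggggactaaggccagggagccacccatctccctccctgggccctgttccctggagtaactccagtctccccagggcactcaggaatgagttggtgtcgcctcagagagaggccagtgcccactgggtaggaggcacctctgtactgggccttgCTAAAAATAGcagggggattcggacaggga
Mir1a-1hg intronic peak, EDL, chr2:180376859-180377067: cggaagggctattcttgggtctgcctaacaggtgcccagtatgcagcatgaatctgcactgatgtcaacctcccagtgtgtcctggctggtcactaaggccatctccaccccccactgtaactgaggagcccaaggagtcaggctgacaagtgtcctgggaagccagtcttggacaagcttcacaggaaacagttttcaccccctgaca
Mir1a-1hg distal peak, Sol, chr2:180362671-180362877: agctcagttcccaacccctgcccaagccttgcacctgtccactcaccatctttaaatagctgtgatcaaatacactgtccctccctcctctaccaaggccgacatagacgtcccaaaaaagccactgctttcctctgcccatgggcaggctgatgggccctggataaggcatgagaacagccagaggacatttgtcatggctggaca
Mir1a-1hg second distal peak, Sol, chr2:180363278-180363484: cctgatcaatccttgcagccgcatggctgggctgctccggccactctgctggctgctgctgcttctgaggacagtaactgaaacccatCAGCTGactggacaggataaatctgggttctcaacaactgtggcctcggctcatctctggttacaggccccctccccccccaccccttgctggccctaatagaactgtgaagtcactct
Mir206 peak, Quad, chr1:20674503-20674691: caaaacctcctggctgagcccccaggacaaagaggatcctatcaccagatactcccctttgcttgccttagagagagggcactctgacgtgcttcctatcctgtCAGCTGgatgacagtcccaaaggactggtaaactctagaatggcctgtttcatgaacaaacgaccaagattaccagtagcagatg
Mir133b peak, Sol, chr1:20691571-20691777: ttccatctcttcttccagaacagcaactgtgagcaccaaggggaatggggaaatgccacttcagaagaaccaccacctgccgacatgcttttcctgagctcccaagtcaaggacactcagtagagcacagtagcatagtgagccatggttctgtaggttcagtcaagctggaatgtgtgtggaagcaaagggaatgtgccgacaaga
Mir499 peak in Myh7b, Sol, chr2:155619883-155620089: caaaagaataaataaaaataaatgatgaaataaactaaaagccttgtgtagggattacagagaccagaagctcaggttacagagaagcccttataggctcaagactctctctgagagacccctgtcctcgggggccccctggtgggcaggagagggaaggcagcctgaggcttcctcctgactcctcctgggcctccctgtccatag
Mir499 peak in Trpc4ap, Sol, chr2:155640736-155640942: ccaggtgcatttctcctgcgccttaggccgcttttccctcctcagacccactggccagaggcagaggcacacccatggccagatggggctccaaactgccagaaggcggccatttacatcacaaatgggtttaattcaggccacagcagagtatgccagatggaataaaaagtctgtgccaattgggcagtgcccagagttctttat
Mir3107 promoter peak, Quad, chr8:23142764-23142952: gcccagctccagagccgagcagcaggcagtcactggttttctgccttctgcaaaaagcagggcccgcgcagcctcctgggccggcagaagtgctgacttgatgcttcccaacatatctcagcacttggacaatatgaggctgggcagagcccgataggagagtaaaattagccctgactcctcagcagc
Mir22hg promoter peak, EDL, chr11:75461231-75461439: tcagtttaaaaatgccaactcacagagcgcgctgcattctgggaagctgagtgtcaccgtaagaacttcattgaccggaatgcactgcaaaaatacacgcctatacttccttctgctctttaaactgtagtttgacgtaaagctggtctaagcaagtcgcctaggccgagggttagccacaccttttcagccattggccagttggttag
Mir3961 distal peak, Sol, chr13:82424838-82425044: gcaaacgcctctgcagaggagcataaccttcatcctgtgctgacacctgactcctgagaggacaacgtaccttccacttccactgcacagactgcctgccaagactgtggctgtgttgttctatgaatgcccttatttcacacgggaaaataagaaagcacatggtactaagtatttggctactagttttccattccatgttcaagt
CAGCTG was present in 20.8% of all EDL peaks, 19.1% of Quad, 20.3% of Sol and 19.5% of Dia peaks at their full width. The MEF2 motif was present in 4.40% of EDL and 4.35% of Sol peaks and in 3.44% of Quad and 3.09% of Dia peaks.

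Peaks of the miR-1 genes were among the strongest of the muscle microRNAs. Scores are the tag counts of HOMER, scaled by the authors, and were compared only as percentiles within the list of the same muscle, where 100 is the highest score. The lists are of unequal length, and a shared region can rank lower in a shorter list, which holds fewer weak peaks. Dia, the shortest list, held the lowest percentile in 52.3% of all regions open in the 4 muscles, and in 20.4% when each list was limited to its 20000 highest scores. Percentiles within these 20000 are therefore also given for the regions with wide gaps between muscles. Mir1a-1hg, the host transcript of Mir1a-1 on chromosome 2, had 5 peaks (EDL), 5 (Quad), 4 (Sol) and 2 (Dia). The distal peak centred about 22.9 kb before its transcription start site (TSS) stood at percentile 91.0 in EDL and 95.03 in Quad, with 96.0 in Sol and 85.6 in Dia. This region ranked high in every muscle. The second distal peak, at percentile 86.9 in EDL, 91.7 in Quad and 83.7 in Sol, was not called in Dia. The intronic peak, in intron 5 of 6 of the non-coding gene B230312C02Rik and about 8.7 kb before the TSS, stood at percentile 95.6 (EDL), 91.0 (Quad), 94.1 (Sol) and 56.8 (Dia). Among the 20000 highest scores of each list, this region stood at 93.3 (EDL), 81.8 (Quad), 91.5 (Sol) and 53.4 (Dia), so that Dia was also the lowest at equal list length. A further peak 17.1 kb before the TSS was listed in EDL at percentile 59.5 and in Quad at 79.9.

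The promoter of Mir1a-1hg carried a peak in 3 of the 4 lists. The EDL and Sol peaks overlapped, with centres 108 bp and 130 bp before the TSS and percentiles of 91.9 and 91.8. The Quad peak was centred 343 bp before the TSS at percentile 89.6 and stood beside the others without overlapping them, so that the region counted as open in Quad alone although the same promoter was open in EDL and Sol. No promoter peak was called in Dia.

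The peaks closest to Mir1b and Mir1a-2, on chromosome 18, lay in intron 12 of 20 of Mib1, the gene of a ubiquitin ligase of Notch signaling. The peak 1.0 to 1.1 kb before Mir1b was called in every muscle, at percentile 89.7 in EDL and 82.1 in Quad, with 78.3 in Sol and 56.8 in Dia. The nearest peak to Mir1a-2, centred between 2130 bp and 2429 bp before it, was likewise called in every muscle, at percentile 83.7 (EDL), 89.2 (Quad), 80.8 (Sol) and 60.7 (Dia). Among the 20000 highest scores, the Mir1b region stood at 84.5 (EDL), 64.0 (Quad), 68.8 (Sol) and 53.4 (Dia), and the Mir1a-2 region stood at 75.4, 78.2, 72.4 and 57.6 in the same order. Both were thus lowest in Dia at equal list length as well, with single libraries and no error to set beside these gaps. A peak 4.1 kb before Mir1a-2 was listed in EDL, Quad and Sol at percentiles of 58.7, 64.0 and 66.0. Beyond 50 kb, the Mir1a-2 peaks stood no higher than percentile 38.3.

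The single-list peaks of the other muscle microRNAs had low or middling scores. Mir499, in the slow myosin gene Myh7b, had peaks in Sol alone, at percentile 45.9 in intron 11 of 41 of Myh7b, 2894 bp before the hairpin, and at percentile 49.0 in intron 12 of 18 of Trpc4ap, 17959 bp beyond it. Another 2 peaks of the locus were assigned to Myh7b itself in Sol, at percentiles of 39.3 and 44.8, and the second of these overlapped a Dia peak at percentile 8.04. EDL and Quad listed no peak for Mir499 or Myh7b. Mir208a and Mir208b, in the genes Myh6 and Myh7, were the nearest gene of no peak, and the 2 peaks nearest to Myh7, at percentiles of 56.97 and 49.99, were also found in Sol alone. Mir206 had 1 peak, in Quad at percentile 25.8, in intron 2 of Lincmd1, a long non-coding RNA of differentiating muscle. Mir133b, beside Mir206 on chromosome 1, had 1 peak in Sol, 8905 bp away, at percentile 16.1.

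Mir3107 is the second miR-486 gene, in the ankyrin gene Ank1. Its promoter peak was called in EDL at percentile 87.2, in Quad at 87.1 and in Dia at 55.1, and not in Sol. Among the 20000 highest scores these were 80.7, 74.1 and 51.6. A peak 3.4 kb before it was listed in EDL at percentile 72.9 and in Quad at 71.2, so the gene had no peak in Sol. Mir133c, in introns of Med27, shared 1 region of EDL, Quad and Sol, at percentiles of 44.3, 68.2 and 63.2, while its 3 other peaks, in Sol or Dia alone, stood between 8.04 and 19.0. In all, 8 of 14 listed muscle microRNA names had a peak, beside 45.3% of all RefSeq microRNA genes (529 of 1169), with 13 peaks in EDL and 17 in Quad, 16 in Sol and 9 in Dia. Of these names, Mir1a-1hg and Mir3107 were not in the list as planned. Mir1a-1hg is a host transcript, a kind not counted among the 1169 genes.

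**Figure D1:**
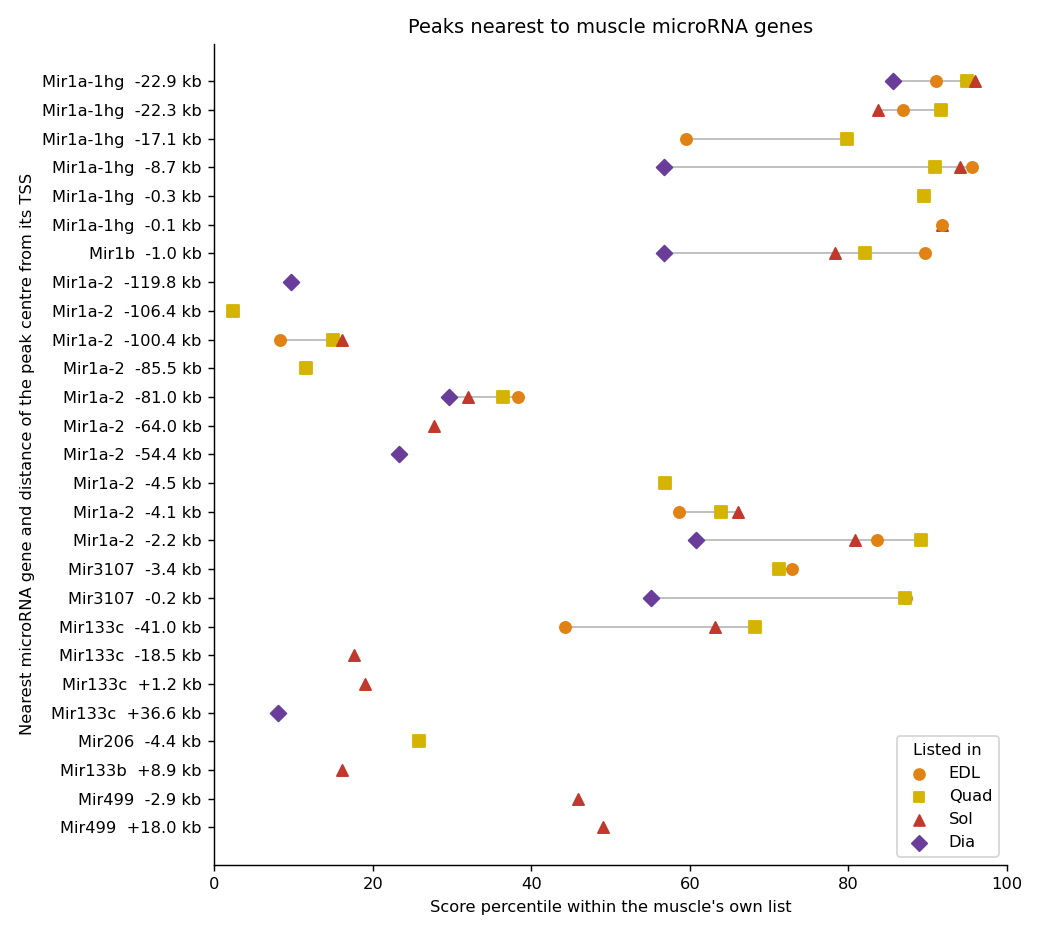
Score percentile within its own list (x axis) of each peak nearest to a muscle microRNA gene, by gene and by the mean distance of the peak centre from the TSS (y axis). Each point is a peak of 1 list, and points on a line lie within 200 bp of the next. The Mir1a-1hg regions reach percentile 96.0 in Sol, the Dia points lie to the left on every line that holds one beside other muscles, which its shorter list also favours (limited to the 20000 highest scores, the Mir1a-2 region 81.0 kb away is higher in Dia, at 24.03, than in EDL, at 7.02), and the Mir499 points are Sol alone.

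Relative to all peaks, microRNA peaks seldom lay in promoters, defined in the deposited annotation as the stretch from 1 kb before a TSS to 100 bp after it. In EDL 46 of 840 microRNA peaks were promoter peaks (5.48%, 95% Wilson interval 4.13% to 7.23%), against 30.7% of all peaks. In Quad it was 47 of 1211 (3.88%, 2.93% to 5.12%) against 25.5%, in Sol 38 of 777 (4.89%, 3.58% to 6.64%) against 31.9%, and in Dia 29 of 500 (5.80%, 4.07% to 8.21%) against 41.3%. The difference, microRNA peaks minus the peaks of other genes, was largest in Dia, where it was -36.3 percentage points (Newcombe interval -38.2 to -33.8), and smallest in Quad, where it was -22.3 percentage points (-23.4 to -20.99). These intervals cover counting error only, and neighbouring peaks are not independent. A peak at the start of a host gene is assigned to that gene, while the start listed for a microRNA gene is often its hairpin. A low promoter share was therefore favoured by the rule of assignment before counting, and how far this set the differences was not tested. Of the microRNA promoter peaks, 37 (EDL), 39 (Quad), 30 (Sol) and 24 (Dia) lay at the start of the microRNA gene itself, and the rest at the start of another gene.

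Introns were the most frequent class of microRNA peaks, at 51.9% in EDL and 53.1% in Quad, and at 48.8% in Sol and 46.2% in Dia, against 33.8%, 36.8%, 32.6% and 26.1% of the peaks of other genes. Gene ends (TTS, the transcription termination site) held 5.48% (EDL), 4.87% (Quad), 4.38% (Sol) and 5.60% (Dia), against 1.18%, 1.23%, 1.003% and 1.04%. That end was the end of the microRNA gene itself for 30 of 46 such peaks in EDL and 38 of 59 in Quad, and for 22 of 34 in Sol and 18 of 28 in Dia. Within 10 kb of the TSS lay 32.3% of the microRNA peaks in EDL and 30.7% in Quad, with 27.8% in Sol and 31.8% in Dia, against 49.3%, 45.0%, 49.4% and 58.1% of all peaks.

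**Figure D2:**
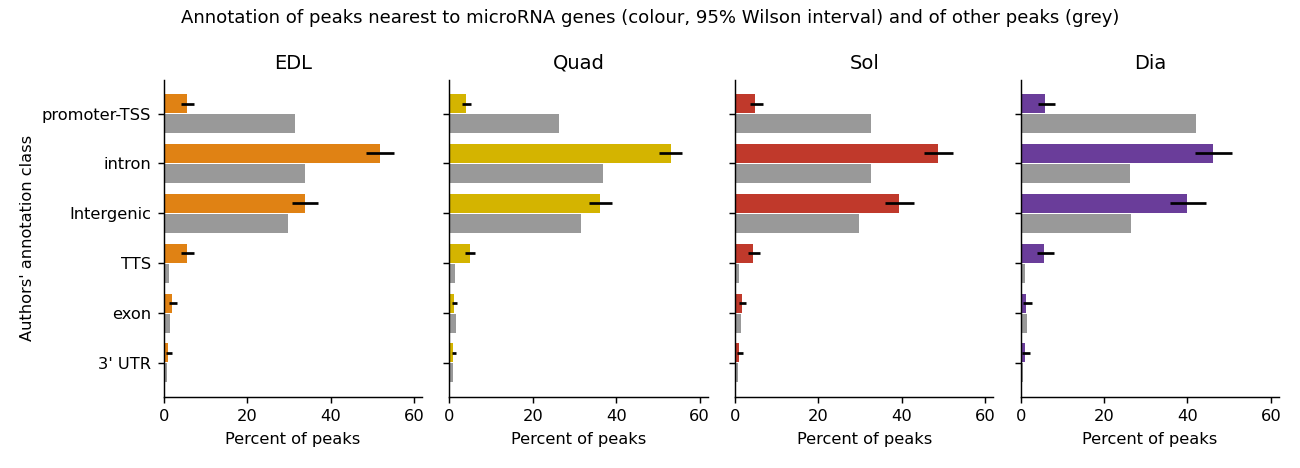
Percent of peaks (x axis) in 6 classes of the deposited annotation (y axis) for each muscle. Colored bars are peaks nearest to microRNA genes with 95% Wilson intervals, and grey bars are all other peaks. The promoter bar is 5.48% in EDL and 5.80% in Dia for microRNA peaks, whose intron bars are the longest in every list.

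Outside promoters, microRNA peaks lay close to the peaks of other genes in distance, score and base composition. Their median distance to the TSS was 23.0 kb in EDL and 23.7 kb in Quad, with 25.7 kb in Sol and 23.7 kb in Dia, against 24.1 kb, 25.5 kb, 25.1 kb and 22.7 kb. The 95% intervals of these medians overlapped in every list, as did those of the score percentile. The median score percentile was 40.9 (EDL), 38.2 (Quad), 38.2 (Sol) and 32.7 (Dia), against 38.3, 40.0, 38.2 and 34.1. Over all peaks, promoters included, the microRNA medians of 42.1, 40.0, 40.5 and 34.1 lay below those of other peaks, 50.7, 50.8, 49.99 and 50.6. Median GC content outside promoters was 51.7% in EDL against 51.7% of the other peaks, 51.9% in Quad against 51.9%, 51.7% in Sol against 52.2%, and 51.5% in Dia against 52.4%. In the central 200 bp, CAGCTG was found in 24.2% of these microRNA peaks in EDL and 23.6% in Quad, with 22.9% in Sol and 23.6% in Dia, and every interval of the difference from other peaks included 0. The same held for the MEF2 motif, at 4.79%, 3.78%, 6.09% and 5.52% in the order EDL, Quad, Sol and Dia.

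**Figure D3:**
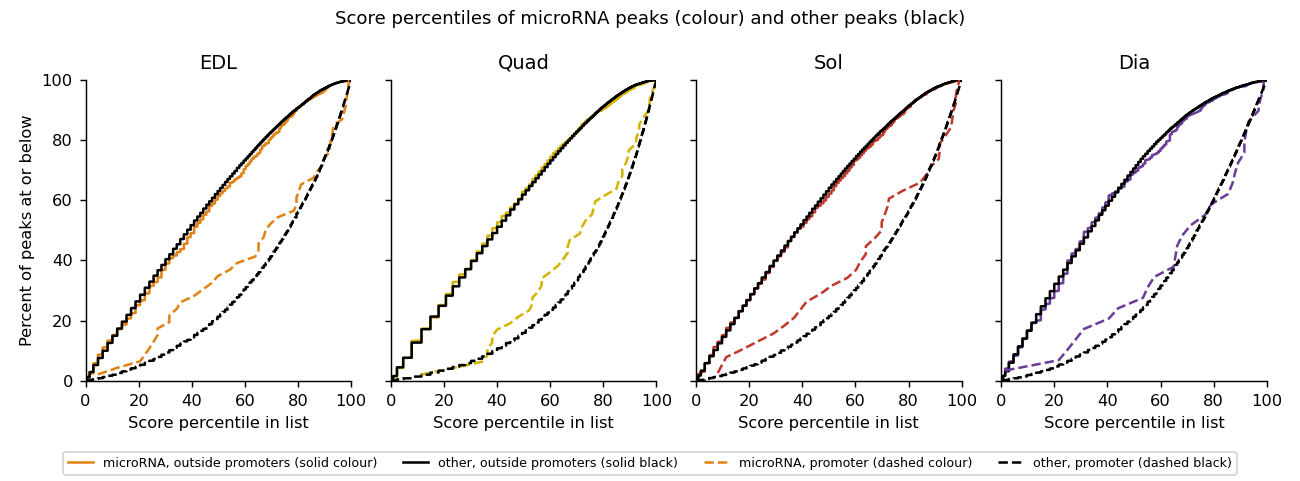
Cumulative percent of peaks (y axis) by score percentile within the list (x axis) for each muscle. Solid lines are peaks outside promoters and dashed lines are promoter peaks, colored for microRNA genes and black for other genes. The solid lines run together, with medians of 40.9 and 38.3 in EDL, and the dashed lines, at 29 to 47 microRNA peaks per list, lie to their right.

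Promoter peaks of microRNA genes scored higher than the remaining microRNA peaks. Their median percentile was 68.7 in EDL and 71.9 in Quad, with 69.9 in Sol and 71.4 in Dia. Promoter peaks of other genes also stood high, with medians of 76.3, 81.3, 75.7 and 74.1 in the same order. A promoter peak was called for 61 microRNA genes in any list and for 22 in all 4. The same counts were not made for all genes, so these have no share beside them. Among the 22, the peaks assigned to Mir3569, Mir3960, Mir8102 and Mir8112 were annotated to the start of another gene. Mir22hg, the host transcript of miR-22, a microRNA abundant in striated muscle, had its promoter peak at percentile 99.3 (EDL), 99.2 (Quad), 98.3 (Sol) and 98.9 (Dia). Mir1938, embedded in Ifrd1, the gene of a transcriptional co-regulator of muscle differentiation, stood at 98.2, 99.5, 99.3 and 98.6 in the same order. Mir210, a microRNA induced by low oxygen, stood at 92.0, 92.3, 88.2 and 93.2. These promoters were thus near the top of every list. Mir7117, within Ank, a pyrophosphate transporter gene, had the widest spread of the 22, from 79.4 in EDL, 71.2 in Quad and 63.9 in Sol down to 31.1 in Dia, and from 68.9 in EDL, 41.9 in Quad and 48.1 in Sol to 25.7 in Dia among the 20000 highest scores.

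The highest-scored microRNA peaks also included repeat-rich DNA. Mir101c, near the start of the assembled part of chromosome 9, had 8 peaks (EDL), 9 (Quad), 7 (Sol) and 7 (Dia), and its best stood at percentile 99.7, 99.8, 98.7 and 99.7. Of the bases of its peaks shown among the 5 highest of each list, 95.8% to 100% were soft-masked as repeat in the reference. Mir101c also held the highest-scored peak found in no other list in EDL, Quad and Dia. The Dia peak of this kind, at percentile 99.7, lay 36 bp from a peak of another list, and the EDL peak, at 82.1, lay 197 bp from one. Reads from repeats can be placed at any of several copies, and how far that set these scores was not tested. Over all microRNA peaks, a soft-masked share of at least 50% was found in 1.79% in EDL and 2.31% in Quad, with 2.06% in Sol and 2.60% in Dia. Outside promoters, the microRNA share exceeded that of other peaks beyond its interval in Dia alone, 2.76% against 1.38% (difference 0.213 to 3.29 percentage points), and a difference between muscles in this respect was not tested.

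Among the 5 highest-scored microRNA peaks of each list, those of Mir101c were the ones rich in repeats, and the others had no soft-masked base. These others were the Mir22hg and Mir1938 promoters, a region 22.9 kb from Mir7012 and a promoter peak assigned to Mir3569. The Mir7012 region lay at the RefSeq start of another gene, Gatad2b, at position 90293181 of chromosome 3, which falls inside the EDL peak (90292982 to 90293190). The Mir7012 region was called in every muscle, at percentile 99.0 in EDL, 99.6 in Quad, 98.8 in Sol and, as the lowest, 97.2 in Dia. The promoter peak assigned to Mir3569, annotated to the start of another gene, stood at percentile 98.9 in EDL, 98.3 in Quad, 97.8 in Sol and, again lowest, 97.4 in Dia. Peaks found in 1 list stood high elsewhere too. In Quad an unshared peak in intron 1 of 2 of the gene, 1057 bp after the start of Mir22hg, stood at percentile 95.6, and it lay 886 bp from the nearest peak of another list. In EDL, unshared peaks of Mir7085, at the promoter, and of Mir7661, in an intron of Itpr1, a calcium release channel gene, reached percentiles of 80.3 and 78.4. In Sol, those of Mir6541, in Wdfy2, and Mir5709, in Ptprm, a receptor phosphatase gene, reached 67.3 and 66.7. In Dia, those of Mir7052 and Mir2139 reached 69.3 and 68.1, and they lay 29 bp and 180 bp from a peak of another list.

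Most microRNA peaks lay inside longer genes. By the deposited annotation, 56.2% of the EDL microRNA peaks lay in an exon, intron, UTR or end of a gene other than the one they were assigned to, against 10.3% of the other peaks. The same shares were 56.2% and 11.4% in Quad, 52.4% and 9.72% in Sol, and 50.4% and 8.09% in Dia, and the lowest difference was 42.3 percentage points in Dia (37.9 to 46.7). A hairpin is too short to hold most of its own peaks, while a peak in a long gene is often assigned to that gene. The direction of this difference was therefore set by gene length before counting. Of 3300 peaks whose gene name had a RefSeq position, 3184 (96.5%) lay where that position implied, to within 200 bp. Another 107 peaks of 13 names, such as Mir684-1 with 26 peaks, Mir5098 with 15 and Mir297c with 15, lay on another chromosome, so the deposited annotation had placed these names elsewhere. Of the 3184 peaks, 2102 (66.0%, 64.4% to 67.6%) lay in the body of a protein-coding or long non-coding gene, and 1742 (54.7%, 53.0% to 56.4%) in the same gene body as the microRNA. The gene-body share was not computed for the peaks of other genes, so whether 66.0% is unusual was not tested. Among the microRNA genes with such a peak, 406 of 515 (78.8%, 75.1% to 82.1%) were embedded in another gene, against 884 of 1169 of all RefSeq microRNA genes (75.6%, 73.1% to 78.0%), and these intervals overlap.

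The host gene with most microRNA peaks was Pde4d, with 85 of the 3184. Pde4d, a cyclic AMP phosphodiesterase gene that holds Mir1904 and Mir582, contained 22 microRNA peaks in EDL and in Sol, 30 in Quad and 11 in Dia. Tnik, a kinase gene with Mir466q, contained 7, 13, 7 and 4 in the same order. Ppargc1b, the gene of the transcriptional coactivator PGC1β, holds Mir378a, a microRNA of energy metabolism, and contained 7, 7, 4 and 4. Among these, a peak in intron 1 of 11 of Ppargc1b, 3.0 kb from Mir378a, was the highest-scored microRNA peak found in Sol alone, at percentile 78.3. A 17.5 kb distant region of the same gene was called in every muscle, at percentile 82.1 (EDL), 90.8 (Quad), 73.7 (Sol) and 21.7 (Dia). A region nearest to Mir6417, about 236 kb away and within the RefSeq body of Ppargc1a, which encodes PGC1α, was also called in every muscle, at 73.9, 81.7, 86.9 and 21.7. Among the 20000 highest scores, Dia was the lowest list at both, at 15.5, with the other lists between 62.2 and 81.5 at the Mir378a region and between 60.7 and 81.2 at the Mir6417 region.

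**Figure D4:**
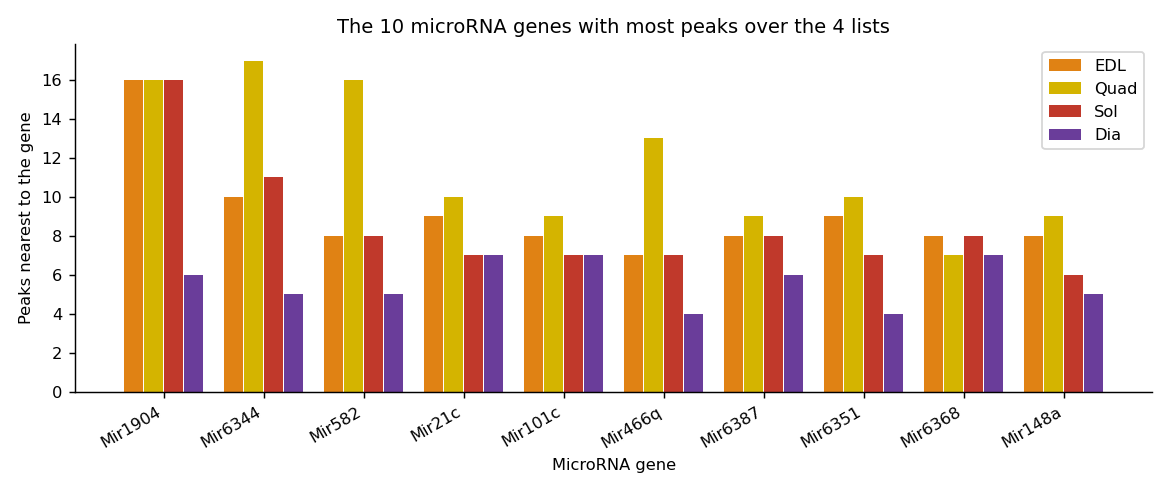
Number of peaks nearest to each of the 10 microRNA genes with most peaks over the 4 lists (x axis, genes; y axis, peaks), with 1 bar per muscle. Mir1904 has 16 peaks in EDL, Quad and Sol and 6 in Dia, and the Quad bar of Mir6344 is the highest at 17.

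Over the 534 microRNA gene names with a peak, 10 genes held 348 of the 3328 peaks (10.5%), and 107 names had a single peak over all lists. Mir1904 had 16 peaks in EDL, Quad and Sol and 6 in Dia. Mir6344, between Nyap2 and Irs1, the insulin receptor substrate gene, had 10, 17, 11 and 5 in the order EDL, Quad, Sol and Dia. Mir582 had 8, 16, 8 and 5. Mir21c, Mir101c, Mir466q, Mir6387, Mir6351, Mir6368 and Mir148a followed with 28 to 33 peaks each, and Mir6951 tied with Mir148a at 28.

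Between Quad and Sol, more peaks were listed in Quad for 289 of the 534 genes (54.1%, against 45.7% of all genes with a peak) and more in Sol for 70 (13.1%, against 12.4%). In lists cut to their 20000 highest scores the counts were 91 and 105, so the direction turned with the length of the list. The widest gaps toward Quad were found for Mir701, in Ttc28, with 13 peaks in Quad and 4 in Sol, Mir582 with 16 and 8, Mir7237, in Banp, with 12 and 4, and Mir122 with 10 and 3. At 20000 peaks per list they held 3 and 3, 4 and 4, 3 and 3, and 4 and 2. Mir6344, Mir466q and Mir684-1 followed with a gap of 6 each.

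The widest gap toward Sol was found for Mir3961, which lies between Cetn3 and Mef2c on chromosome 13. Mef2c encodes a MEF2 transcription factor of muscle. Mir3961 had 5 peaks in EDL and 4 in Quad, with 10 in Sol and 8 in Dia, and at 20000 peaks per list 3, 2, 6 and 8. All of them lay more than 100 kb from the hairpin, between 102.5 kb and 440.0 kb. The regions called in every muscle, 102.5 to 102.6 kb and 138.9 to 139.0 kb away, stood at percentiles of 59.5 and 76.3 (EDL), 64.0 and 55.7 (Quad), 73.2 and 74.2 (Sol), and 39.2 and 50.6 (Dia). Sol and Dia alone shared 3 regions of this gene. Their percentiles were 71.1 in Sol and 34.1 in Dia at 273 kb, 63.2 and 11.4 at 195 kb, and 0.895 and 9.72 at 245 kb. The remaining genes with more peaks in Sol differed by 2 peaks or fewer, Mir499 with 2 against 0 among them.

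Between Dia and EDL, the widest gaps toward EDL were those of Mir1904 (16 in EDL, 6 in Dia), Mir297c (7 and 0), and Mir6351, Mir6344 and Mir190a with a gap of 5 each. Toward Dia they were Mir680-3, with 2 peaks in EDL and 6 in Dia, and Mir3961, with 5 and 8, and the other genes differed by 2 peaks or fewer. At 20000 peaks per list, EDL and Dia held 12 and 6 for Mir1904, 2 and 0 for Mir297c, 4 and 4 for Mir6351, 7 and 4 for Mir6344 and 4 and 0 for Mir190a, so the gap of Mir6351 was lost. Mir680-3 then had 0 and 5, and Mir3961 had 3 and 8.

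MicroRNA regions were shared by the muscles less often than all regions, and no such difference was detected without promoter regions. Of the 1683 regions, 17.6% were open in all 4 muscles (15.9% to 19.5%), against 26.9% of all regions, and 831 in 1 muscle (49.4%, 47.0% to 51.8%), against 42.6%. Among regions without a promoter peak, 16.5% of the microRNA regions and 16.0% of the other regions were open in all 4 muscles, a difference of 0.535 percentage points (-1.23 to 2.46). The share open in 1 muscle was 50.5% in both groups (difference -2.48 to 2.49 percentage points). Regions open in Quad alone were the most frequent single-muscle class, with 459 regions, followed by 166 in Sol, 131 in EDL and 75 in Dia. These were 27.3%, 9.86%, 7.78% and 4.46% of the microRNA regions, against 22.7%, 8.62%, 6.71% and 4.61% of all regions, in the order of list length apart from EDL and Sol. At 20000 peaks per list, the share of microRNA peaks in no other list was 25.1% in Dia and 17.5% in Quad, so that this order turned.

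**Figure D5:**
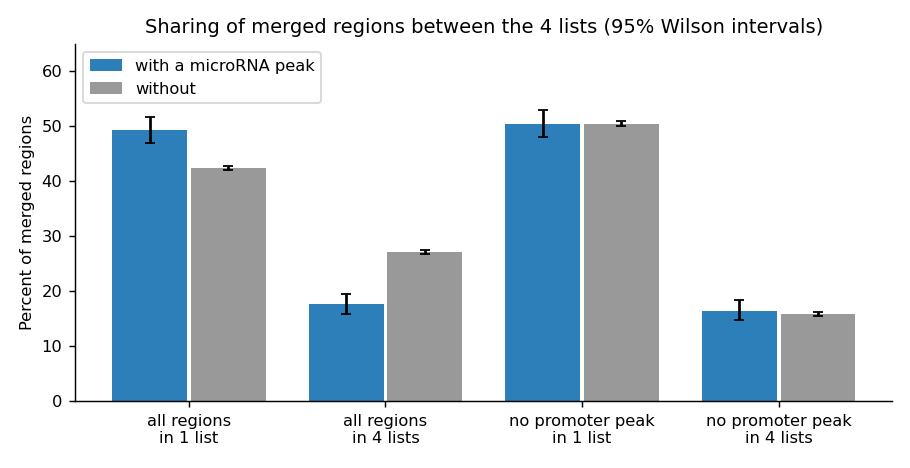
Percent of merged regions (y axis) found in 1 list or in 4 lists, for regions with a microRNA peak (blue) and without one (grey), over all regions and over regions with no promoter peak (x axis). Bars are shares and lines are 95% Wilson intervals. The bars differ over all regions, 17.6% against 27.2% in 4 lists, and lie within 1 percentage point of each other without promoters.

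By list, the share of microRNA peaks found in no other muscle was 15.6% in EDL (13.3% to 18.2%) against 12.0% of all peaks, 37.9% in Quad (35.2% to 40.7%) against 30.3%, 21.4% in Sol (18.6% to 24.4%) against 16.1%, and 15.0% in Dia (12.1% to 18.4%) against 11.5%. Outside promoters the shares were 15.7% in EDL against 16.1% of all peaks, 39.0% in Quad against 37.7%, 22.5% in Sol against 22.3%, and 15.3% in Dia against 17.5%. Each interval of the difference from other peaks then included 0. In lists of the 20000 highest scores this changed in EDL alone, where 19.2% of the microRNA peaks and 15.2% of the other peaks outside promoters were found in no other list (difference 0.544 to 7.82 percentage points).

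For pairs of muscles, EDL and Quad shared 43.4% of their microRNA regions (40.8% to 46.0%), EDL and Sol 43.6% (40.7% to 46.5%), Sol and Dia 38.9% (35.8% to 42.1%), EDL and Dia 35.7% (32.8% to 38.7%), Quad and Sol 35.4% (33.0% to 37.9%) and Quad and Dia 27.8% (25.5% to 30.3%). EDL with Quad and EDL with Sol could not be ranked, and Quad with Dia was the lowest pair beyond its interval. At 20000 peaks per list this no longer held, with 38.02% (34.4% to 41.8%) for Quad and Dia and 39.2% (35.6% to 42.9%) for EDL and Dia. All regions of the same pairs were shared at 51.6%, 52.7%, 48.6%, 46.7%, 44.8% and 38.3%. As a description, Spearman's rho of the scores over the shared microRNA regions ran from 0.691 over 354 regions for EDL and Dia to 0.796 over 622 for EDL and Quad. By gene, 241 of the 534 names had a peak in all 4 lists (45.1%, 41.0% to 49.4%), against 65.1% of all genes with a peak, and 121 had one in 1 list.

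Within the 288 regions open in all 4 muscles and assigned to a microRNA gene in each, Dia held the lowest percentile in 168 (58.3%, against 52.3% of all regions open in all 4 muscles) and Quad the highest in 128 (44.4%, against 57.4%). This is the order of list length. Among the 20000 highest scores of each list, 199 such regions remained, with Dia lowest in 26.6% and Quad highest in 19.6%, so neither order held at equal length. Within whole lists, the median of the 288 regions was 65.5 (EDL), 69.8 (Quad), 65.3 (Sol) and 48.7 (Dia). Their median range across muscles was 26.1 percentile points, against 19.1 over all regions open in all 4 muscles, promoters included. Among regions without a promoter peak it was 27.4 (25.1 to 30.1) for the 267 microRNA regions and 27.1 (26.7 to 27.6) for the others, so the wider range was not seen there. Of the 288 regions, 28 ranged over more than 50 points. The widest ranges were 73.8 points near Mir7243, in an intron of the ephrin receptor gene Ephb1, 70.9 near Mir6951, 70.5 near Mir7048, in Dedd2, 70.4 near Mir1933, in Vps54, and 69.1 near Mir378a. Dia was the lowest list in each of these 5 regions. Among the 20000 highest scores, Dia stood at 8.23 near Mir7243 and Mir7048 and at 15.5 near Mir378a, again below the other lists, while its peaks near Mir6951 and Mir1933 were not among them, nor was the Sol peak near Mir6951. Near Mir7243 the percentiles within whole lists were 88.8 in EDL and 88.7 in Quad, with 65.3 in Sol and 15.0 in Dia.

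Few peaks covered the hairpins themselves. Of 1005 hairpins in the RefSeq table, 38 were overlapped by a peak in any list and 7 in all 4 lists, namely Mir1945, Mir449c, Mir5122, Mir5625, Mir713, Mir718 and Mir8114. RefSeq gives a position for 1169 microRNA genes, so this table is incomplete and the counts are lower bounds. Mir1938, for one, was not counted, although its promoter peaks cover its RefSeq position (40222712 to 40222811 on chromosome 12) in all 4 lists. Among the 7 counted hairpins, Mir1945 had the strongest peaks in EDL, Quad and Sol, at percentile 97.2 (EDL), 96.8 (Quad), 96.0 (Sol) and 90.7 (Dia). Mir8114 stood at 92.5, 94.9, 94.1 and 91.5 in the same order. The Mir1938 peaks, at 98.2, 99.5, 99.3 and 98.6, stood above both in every list. Of the 80 overlapping peaks, 63 were themselves nearest to a microRNA gene by the deposited annotation.

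MicroRNAs typical of other cells were listed beside a share of 45.3% of all RefSeq microRNA genes with a peak and a median of 4 peaks per gene over all lists. Epithelial microRNAs, the miR-200 family, had none of 5 names. The endothelial Mir126b had 1 peak, in Quad at percentile 70.5. For leukocytes, 3 of 9 names had a peak, 1 in EDL and 5 in Quad, with 1 in Sol and 0 in Dia. For smooth muscle only Mir145b of 5 names did, with 3, 4, 4 and 1 in the same order, none above percentile 49.4. For fibroblasts 3 of 6 names did, with 4, 6, 5 and 3. Among them Mir199a-1, in Dnm2, had a peak in every list, the best at percentile 75.8 (EDL), 90.1 (Quad), 81.6 (Sol) and 66.2 (Dia). Its promoter peak, in Quad alone, stood at 60.1. The neuronal Mir9-3hg had 1 peak each in EDL and Dia, up to percentile 15.0. Mir9-3hg and Mir155hg, the latter among the leukocyte names with a peak, were not in the lists as planned. Both are host transcripts, a kind not counted in the 45.3%. Mir122, abundant in liver, had 4, 10, 3 and 0 peaks up to percentile 80.8, all between 23.4 kb and 98.4 kb from the hairpin, on chromosome 18, and 11 of these 17 peaks lay inside Nedd4l, a ubiquitin ligase gene beside Mir122.

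The clustered microRNAs are given with the number of listed names that had a peak, beside 45.3% of all RefSeq microRNA genes. The miR-30 genes, with 3 of 7 names, had 6 peaks (EDL), 8 (Quad), 9 (Sol) and 6 (Dia). A region 16.2 kb before Mir30a was called in every muscle, at percentile 93.5 in EDL and 96.9 in Quad, with 96.3 in Sol and 92.4 in Dia. Mir30d reached 90.9, 86.2, 90.9 and 90.01. The miR-181 genes, with 3 of 6 names, had 5, 11, 10 and 4 peaks in the order EDL, Quad, Sol and Dia. The miR-29 genes, with 3 of 4 names, had 7, 11, 4 and 3. The miR-99, miR-100 and miR-125 genes, with 6 of 7 names counting the host transcript Mir99ahg, had 8, 9, 3 and 2. Mir23a, alone of the 3 names of its cluster, had 1 peak in EDL and 2 in each other list, up to percentile 92.8 in Sol. Mir17, the first gene of the miR-17 cluster and alone of its 7 names, likewise had 1, 2, 2 and 2. The repeat-rich families Mir466, Mir467, Mir669 and Mir297 had 15 names with a peak and 28, 43, 24 and 10 peaks. Many of these peaks did not lie at the RefSeq position of their name. Such peaks were 15 of Mir297c, 13 of Mir466h, 8 of Mir466p and 7 of Mir466d, beside fewer of other names. These counts therefore do not describe the RefSeq loci of the families. The miR-106b (3 names), miR-23b (3), miR-221 (2) and miR-10 (5) clusters and the miR-379 to miR-410 group had none.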

How the data were processed

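ATAC-seq libraries of EDL, Quad, Sol and Dia were analysed, with 1 library per muscle grouped by the tissue label. The authors aligned reads to mm10 with Bowtie2, kept 1 tag per position and called and annotated peaks with HOMER in its factor mode. The deposited lists give positions, the nearest gene, the distance to its TSS and the peak score, a tag count scaled by the authors. Score steps imply 25 to 36 tags at the lowest peak. Read totals and the Tn5 offset are not given in the sources used here. The detailed repeat annotation was NA in every list, so repeats were measured as soft-masked bases of GRCm38.p6.

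Peaks overlapping by at least 1 bp were merged with pandas 2.3.3 and read with pysam 0.24.0. Shares carry 95% Wilson or Newcombe intervals, and medians carry order-statistic intervals. Overlap counts and intervals were tested on simulated data. Where a list lacks a peak, it was not called there, which does not show closed chromatin. Host genes were RefSeq gene bodies.

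The members and gene lists were chosen with earlier results of these data known. Named genes were the muscle microRNAs, the 10 genes with most peaks, the 5 highest-scored peaks and 3 highest unshared peaks of each list, promoter peaks in all 4 lists, the 5 widest gaps between Quad and Sol and between Dia and EDL, the 5 widest percentile ranges, hairpin overlaps, and lists for other cells and clusters. Tied genes and the Myh7b, Myh7 and Mir6417 peaks were added after their values were seen. Alternatives were lists of 20000 peaks, 50% reciprocal overlap, a 50 kb limit, and leaving out host transcripts, soft-masked peaks or promoters.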

Additional observations from a re-analysis of the deposited data

How the results depend on the processing

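With a single library per muscle no library could be left out. No paired analysis was possible because each muscle had 1 library and no test was made. Of the values recomputed under other settings, 92 stayed within the main 95% interval (counts within 1.5 times) and 55 did not. None of those for let-7 genes, host transcripts, soft-masked peaks or promoters left out of whole lists moved. The planned removal of satellite and simple repeats was not run, since the detailed annotation was empty, and soft-masking was added after seeing the data. The cause of the shifts was not tested, and limiting the lists changes both their length and their composition.

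With the 20000 highest-scored peaks per list, microRNA peaks made up 2.50% of the EDL, 2.35% of the Quad and 2.37% of the Sol list, promoters held 7.89% of them in Quad and 6.77% in Sol, and 37.4% in EDL, 40.3% in Quad and 34.7% in Sol lay within 10 kb of the TSS. Peaks in no other list were 19.0% (EDL), 17.5% (Quad), 16.1% (Sol) and 25.1% (Dia), or, outside promoters, 19.2%, 18.1%, 17.0% and 26.0%. Of the shared microRNA regions, Dia held the lowest percentile in 26.6% and Quad the highest in 19.6%, an alternative added after seeing the data. In Quad 52.0% lay inside another gene, at a median percentile of 37.6. Regions open in all 4 muscles were 23.9%, and pairs shared 51.8% (EDL and Quad), 47.8% (EDL and Sol), 39.2% (EDL and Dia), 46.0% (Quad and Sol), 38.02% (Quad and Dia) and 47.4% (Sol and Dia).

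With 50% reciprocal overlap, peaks in no other list were 23.2% in EDL and 45.1% in Quad, with 26.5% in Sol and 20.6% in Dia, regions open in all 4 muscles 13.6%, and pairs shared 32.1%, 35.4%, 29.1%, 27.5%, 20.6% and 31.3% in the order above.

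Within 50 kb of the TSS, promoters held 7.68% of the microRNA peaks in EDL, 5.59% in Quad and 7.18% in Sol, other genes held 60.1% (EDL), 60.3% (Quad), 57.3% (Sol) and 56.2% (Dia), and the median percentiles were 45.5, 45.0, 45.9 and 40.5. In Sol 17.6% were in no other list. Regions open in all 4 muscles were 20.1%, and pairs shared 46.6% (EDL and Quad), 47.1% (EDL and Sol), 38.2% (Quad and Sol) and 42.9% (Sol and Dia).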
